A study of Mus musculus with 6 samples.

Results

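The genes described are 10 components of the Hippo pathway, chosen by name: the coactivators Yap1 and Wwtr1 (the gene for Taz), their DNA-binding partners Tead1, Tead2, Tead3 and Tead4, the kinases Lats1, Lats2 and Stk3, and the scaffold Sav1. All 10 had values and all 10 passed the expression minimum used for testing, a 6-library mean no lower than 1 cRPKM, among 12315 genes tested of 21553 with values. RNA was sequenced from mouse kidneys of E13.5, 6 embryos in all, with both kidneys of an embryo in 1 library and most of the ureter cut away. Embryos homozygous for a Fat4 mutation (Fat4-/-) made up the first group and wildtype embryos (Fat4+/+) the second, with 3 in each. All came from a single pregnant female of the strain labelled C57BL6/6, backcrossed 6 times, so that the p-values measure the spread between littermates. The labels name no driver that limits the mutation to a cell type. The sources used here do not give which part of Fat4 it removes. Levels are in cRPKM, a corrected RPKM (reads per length of gene and per number of mapped reads), so that genes can be set beside each other per length.

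In the Hippo pathway the kinase Mst (Stk3 and Stk4), held by the scaffold Sav1, activates the kinases Lats1 and Lats2 with the help of Mob1 proteins. Lats kinases phosphorylate Yap and Taz, which keeps them out of the nucleus and marks them for breakdown. When not phosphorylated, Yap and Taz bind Tead proteins on DNA and turn on genes of growth. Much of this control acts on the proteins, which mRNA levels do not show. In the fly, Fat is a receptor upstream of the pathway, and in the mouse kidney Fat4 and Yap have both been studied as regulators of nephron progenitors, which is the question that the comparison of Fat4-/- with wildtype kidneys addresses for these genes.

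Because Tead proteins also act on genes of the pathway itself, their core recognition sequence, GGAATG on either strand (CATTCC on the other), was looked for in the promoter windows of the 10 genes, from 250 bases before to 50 after a start (RefSeq, GRCm38.p6). Windows were found for 7 of the genes, and 5 of those held the sequence in at least 1 window, beside 16.6% of all genes with a window. A match describes the letters of the window and is not a bound site. The matches below are shown 5′ to 3′ on the strand of the gene with the core in capitals, to let the genes of the coactivators, the scaffold, a kinase and a Tead be compared.
Yap1, chr9:8004720-8004749, minus strand: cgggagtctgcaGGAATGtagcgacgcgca
Wwtr1, chr3:57576029-57576058, minus strand: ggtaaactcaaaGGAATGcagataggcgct
Sav1, chr12:69987091-69987120, minus strand: cggctttcccagCATTCCcagcggcgcggg
Lats2, chr14:57746102-57746131, minus strand: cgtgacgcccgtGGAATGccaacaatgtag
Tead3, chr17:28350706-28350735, minus strand: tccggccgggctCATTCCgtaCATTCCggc
Counted from the start, the core began at -141 in the Yap1 window, at -136 in a Wwtr1 window and at -106 in the Sav1 window. In Lats2 it began at 5, in the window of a start that lies inside the gene. Tead3 held 4 matches over its windows, with a pair of them side by side in the stretch shown. That stretch also lies inside the gene, which on the minus strand begins at 28350817. Tead2 and Lats1 had windows without these letters, and Tead1, Tead4 and Stk3 were not matched to a window.

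None of the 10 genes was called higher or lower in Fat4-/- kidneys (limma on log2(cRPKM + 1), p-values adjusted by the Benjamini-Hochberg method over all genes tested, called under 0.05). Over all genes tested 1.43% were called, 0.552% higher and 0.877% lower. Without adjustment 0 of the 10 had a p under 0.05, beside 13.0% of all genes tested. In 0 of the 10 were the Fat4-/- values clear of the wildtype values, beside 18.2% of all genes tested. The median log2 fold change of the 10 genes was -0.0089 and their median size of change 0.028, beside -0.012 and 0.050 over all genes tested. The adjusted p of the 10 genes ran from 0.455 to 0.993. In RNA of a whole kidney, fewer cells of a type and less RNA per cell cannot be told apart.

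**Figure D1:**
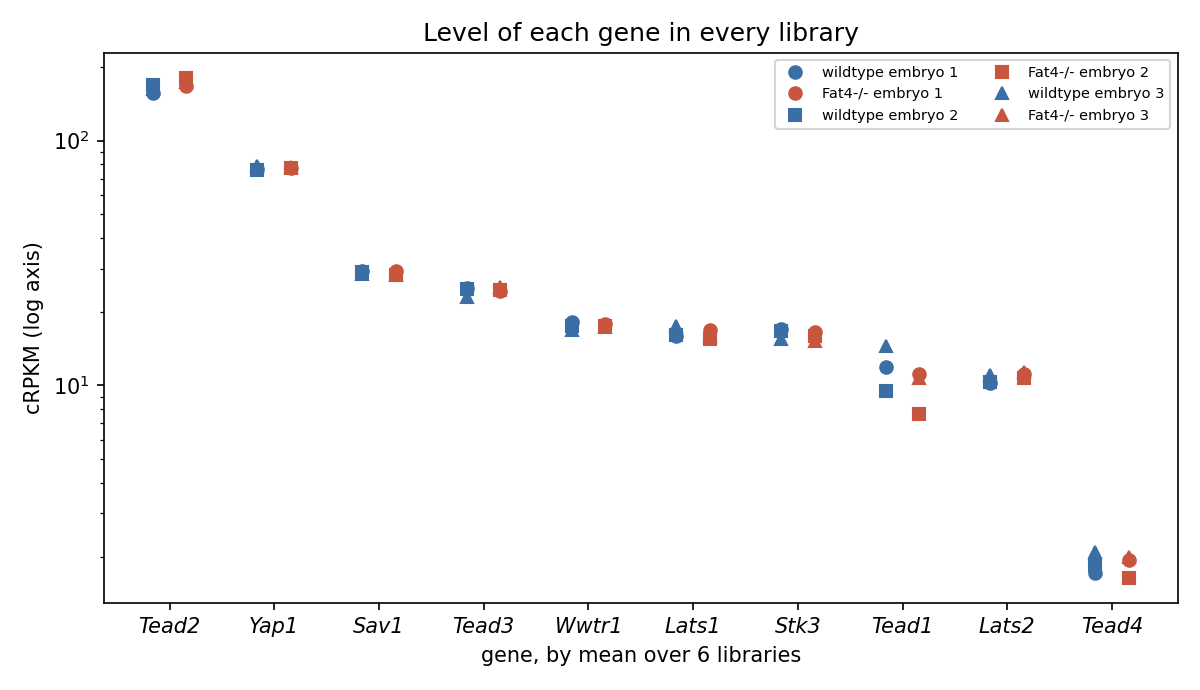
Level of the 10 genes in cRPKM on a log axis in each of the 6 libraries, wildtype in blue and Fat4-/- in red, with the symbol giving the embryo number. Tead2 is highest at a mean of 168 cRPKM and Tead4 lowest at 1.87, and the points of Tead1 lie farthest apart.

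Fat4 itself was at 16.74, 15.69 and 16.83 cRPKM in the wildtype and 7.82, 7.20 and 7.49 in Fat4-/- libraries (log2 fold change -1.03, adjusted p = 0.000155 by limma), so that the libraries divided by their labels. The summed level of 4 Y-linked genes (Uty, Ddx3y, Eif2s3y and Kdm5d) was 65.27 to 72.97 cRPKM in the wildtype libraries, 69.6 in Fat4-/- embryo 1 and 0.08 and 0.15 in Fat4-/- embryos 2 and 3, which leaves sex uneven between the genotypes. A fit with the Y-linked level as a covariate therefore compares, in effect, Fat4-/- embryo 1 alone with the wildtype libraries. Markers of the labelled tissue were present, with Six2 of nephron progenitors at 88.16 to 138.91, Foxd1 of stroma at 36.36 to 48.28 and Ret of the ureteric bud at 12.49 to 17.25 cRPKM over the 6 libraries. The adrenal cortex list summed to 2.16 to 2.41 cRPKM and the skeletal muscle list to 3.99 to 12.48. The summed nephron progenitor list (8 genes) was at 307.83 to 348.73 cRPKM in the wildtype and 369.2 to 426.01 in Fat4-/- libraries. Its log2 fold change was above 0 in 7 of the 8, with Eya1 and Osr1 called higher, beside 1.43% called of all genes tested. The summed stroma list (9 genes) was at 682.09 to 859.64 in the wildtype and 661.27 to 700.1 in Fat4-/- libraries. Its most abundant genes, Col1a1 and Col3a1, overlapped between the genotypes. Of the 9 genes Pdgfra was called lower, and in 2, Foxd1 among them, the log2 fold change was above 0.

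Yap1 (ENSMUSG00000053110) lies on chromosome 9 at 7931999 to 8004596 (positions of genes are those of GENCODE M21 on GRCm38; the values refer to mm9). Yap1 was at 76.62, 76.22 and 78.49 cRPKM in the wildtype and 77.45, 77.31 and 78.21 in Fat4-/- kidneys. The highest of the 6 libraries was 1.03 times the lowest, and the genotypes overlapped in full. Its mean was 77.1 ± 1.21 cRPKM in the wildtype and 77.7 ± 0.484 in Fat4-/- kidneys (SD, n = 3). The coefficient of variation of Yap1 over the 6 libraries was 1.13%, and 0.341% of the genes tested had a lower one, against a median of 5.44% over all genes tested. The log2 fold change was 0.010, with a 95% interval of -0.072 to 0.092 (adjusted p = 0.942, limma). On the scale of cRPKM + 1 that interval allows a change between -4.86% and 6.60%.

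Wwtr1 (ENSMUSG00000027803), which encodes the Yap paralog Taz, was at 18.15, 17.56 and 16.85 cRPKM in the wildtype and 17.74, 17.47 and 17.29 in Fat4-/- kidneys. All 3 Fat4-/- values lay inside the range of the wildtype values. The log2 fold change was -0.0010, with an interval of -0.095 to 0.093 (adjusted p = 0.993, limma). Wwtr1 lies on the same chromosome as Fat4, chromosome 3, at 57455649 to 57575910, which is 18.4 Mb from the end of Fat4. Yap1 was 4.22, 4.34 and 4.66 times the level of Wwtr1 in the wildtype and 4.37, 4.43 and 4.52 times in Fat4-/- libraries. That ratio did not differ beyond its spread (exact 2-sided permutation p = 0.8, adjusted 0.8 over 6 ratios and shares, n = 3 against 3, for which the smallest possible p is 0.1).

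The genes whose levels ran most like Yap1 over the 6 libraries were Zer1 (r = 0.975 on the log2 scale), AU040320 (r = 0.974) and Dyrk1b (r = 0.967), and 71 genes were above 0.9. For Wwtr1 they were Flywch2 (r = 0.995), Dtd1 (r = 0.993) and Kcnj2 (r = 0.983), with 91 genes above 0.9. These likenesses follow differences between libraries as small as those just given for Yap1 and Wwtr1, and they are descriptions over 6 libraries only. The counts above 0.9 were not set beside the number that unrelated genes would reach, so they do not show shared regulation.

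Tead2 (ENSMUSG00000030796, chromosome 7, 45215753 to 45233644) was the most abundant of the 10 genes. It was at 156.66, 168.15 and 162.50 cRPKM in the wildtype and 166.75, 180.32 and 174.20 in Fat4-/- kidneys. The Fat4-/- values of Tead2 lay higher on the whole, yet wildtype embryo 2 was above Fat4-/- embryo 1. The mean went from 162 ± 5.75 to 174 ± 6.80 cRPKM (SD, n = 3), a log2 fold change of 0.096 with an interval of -0.013 to 0.21 (adjusted p = 0.455, limma). That was the lowest adjusted p of the 10 genes. The nephron progenitor list, whose sums are given above, was higher in the same libraries, and its part in the level of Tead2 was not tested.

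Tead1 (ENSMUSG00000055320, chromosome 7, 112679318 to 112906807) had the widest spread of the 10 genes. It was at 11.89, 9.46 and 14.52 cRPKM in the wildtype and 11.09, 7.62 and 10.72 in Fat4-/- kidneys. Embryo 2 was lowest in both genotypes and wildtype embryo 3 stood highest, 1.91 times above Fat4-/- embryo 2. The mean was 11.96 ± 2.53 cRPKM in the wildtype and 9.81 ± 1.91 in Fat4-/- kidneys (SD, n = 3), with a log2 fold change of -0.26 and an interval of -0.63 to 0.11 (adjusted p = 0.568, limma). The coefficient of variation of Tead1 was 21.3%, and 96.8% of the genes tested had a lower one.

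The spread of Tead1 ran with that of genes that have long transcripts. The longest annotated transcript of Tead1 is 9964 bases, longer than in 97.6% of the genes tested. Those of Tead2, Tead3 and Tead4 are 3396, 3443 and 3076 bases. Lats1 and Yap1, at 7209 and 5282 bases, had coefficients of variation of 4.55% and 1.13%, beside a median of 5.44% over all genes tested. A part of transcript length in the spread of Tead1 was not tested. The 3 genes most like Tead1 over the 6 libraries, a comparison made after its values were seen, were Slit2, Tulp4 and Xpo4 (r = 0.997, 0.996 and 0.996), with longest transcripts of 9960, 9687 and 8680 bases. Of 446 genes above r = 0.9 with a known length, 61.7% were among the 10% of tested genes with the longest transcripts. The mean log2 deviation of those longest 10% (1211 genes, the 10 described left out) was 0.026, -0.031 and 0.090 in the wildtype and 0.021, -0.11 and 0.0038 in Fat4-/- libraries. Tead1 deviated by 0.14, -0.16 and 0.41 in the wildtype and 0.048, -0.44 and 0.0033 in Fat4-/- libraries, in the same order of all 6. The summed erythroid list took the reverse order within each genotype, at 1037.33, 1353.02 and 664.1 cRPKM in the wildtype and 872.25, 1369.48 and 946.8 in Fat4-/- libraries. The log2 fold change of Tead1, -0.26, moved by more than 1.5 times with single libraries and with other fits. It was -0.10 without Fat4-/- embryo 2, -0.12 without wildtype embryo 3 and -0.40 without wildtype embryo 2. It was -0.059 with library weights, -0.076 with the Y-linked level as a covariate (in effect Fat4-/- embryo 1 alone) and -0.024 with the long-transcript mean as a covariate. The last of these was added because its values run in the order of Tead1, so that it repeats that pattern and is no separate test of it.

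**Figure D2:**
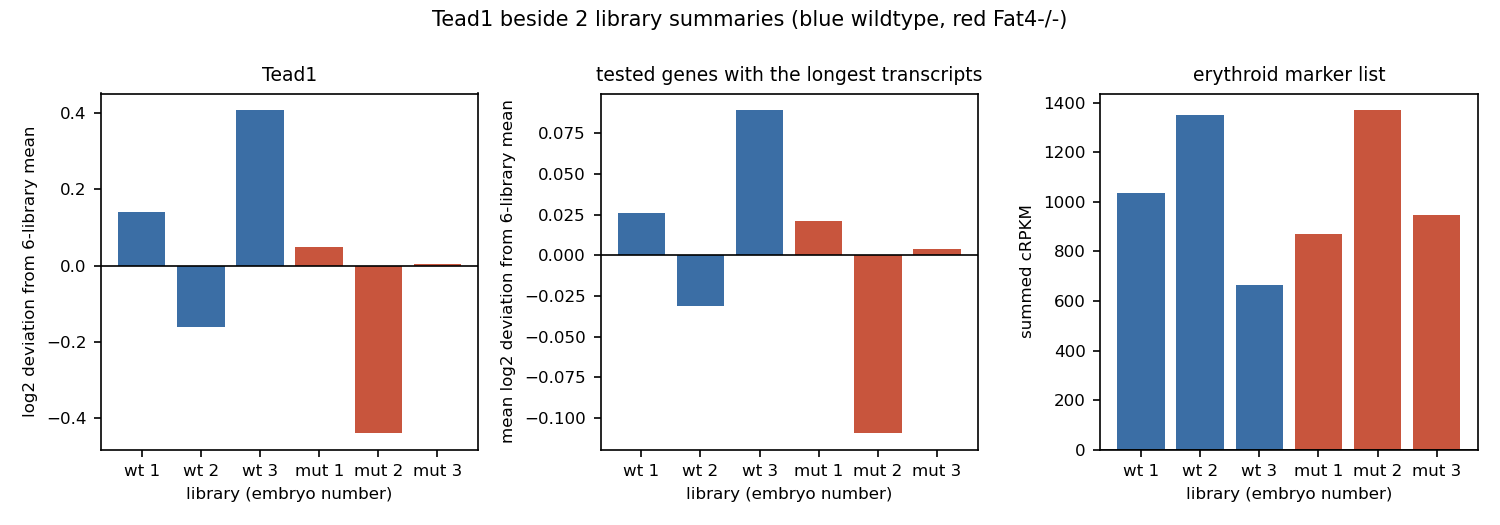
Tead1 (log2 deviation from its 6-library mean), the tested genes with the longest transcripts (mean log2 deviation) and the erythroid list (summed cRPKM) in each library, wildtype in blue and Fat4-/- in red. The first panels share their order, with wildtype embryo 3 highest (0.41 and 0.090) and Fat4-/- embryo 2 lowest (-0.44 and -0.11).

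Tead3 (ENSMUSG00000002249, chromosome 17) was at 24.95, 24.78 and 23.07 cRPKM in the wildtype and 24.23, 24.56 and 25.16 in Fat4-/- kidneys (log2 fold change 0.022, interval -0.077 to 0.12, adjusted p = 0.880, limma). Tead4 (ENSMUSG00000030353, chromosome 6) was the lowest of the 10 genes, at 1.72, 1.85 and 2.09 cRPKM in the wildtype and 1.93, 1.64 and 1.99 in Fat4-/- kidneys. At that level a fold change on the log2(cRPKM + 1) scale is understated. It was -0.017 for Tead4, with an interval of -0.19 to 0.16 (adjusted p = 0.956, limma).

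Of the summed Tead cRPKM, Tead2 made up 81.8%, Tead3 11.9%, Tead1 5.33% and Tead4 0.912% on average over the 6 libraries. The share of Tead2 was 81.0 ± 1.17% in the wildtype and 82.7 ± 1.32% in Fat4-/- kidneys, and that of Tead1 was 5.97 ± 1.28% and 4.68 ± 0.993% (SD, n = 3). Exact 2-sided permutation tests gave p = 0.3 for both, 0.5 for Tead3 and 0.6 for Tead4 (adjusted p = 0.6, 0.6, 0.72 and 0.72). Single libraries moved these differences: that of Tead1, -1.28 percentage points, was -1.95 without wildtype embryo 2, -0.678 without wildtype embryo 3 and -0.722 without Fat4-/- embryo 2, and that of Tead2, 1.71, was 0.958 without Fat4-/- embryo 2. Shares of a sum are tied to each other, so the tests of the Teads are not independent.

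Lats1 (ENSMUSG00000040021, chromosome 10, 7681214 to 7716460) was at 15.90, 16.13 and 17.52 cRPKM in the wildtype and 16.89, 15.54 and 15.91 in Fat4-/- kidneys. Lats2 (ENSMUSG00000021959, chromosome 14, 57689662 to 57758388) was at 10.20, 10.35 and 11.03 cRPKM in the wildtype and 11.13, 10.74 and 11.37 in Fat4-/- kidneys. For both kinases the genotypes overlapped. The log2 fold change was -0.033 for Lats1 (interval -0.15 to 0.084, adjusted p = 0.846) and 0.068 for Lats2 (interval -0.037 to 0.17, adjusted p = 0.604, limma). Lats2 is also widely listed as a target of Yap, and of 12 tested genes of the target list used here none was called, beside 1.43% of all genes tested. In 4 of them the unadjusted p was under 0.05 (limma), beside 13.0% of all genes tested, with Amotl2, Dlc1 and Ajuba higher and F3 lower. In 4 of the 12 the genotypes did not overlap, beside 18.2% of all genes tested. The log2 fold change was above 0 in 10 of the 12, beside 5317 of 12315 genes tested. Its median was 0.074 in the list and -0.012 over all genes tested, and the list as a whole was not tested.

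The ratio of Lats1 to Lats2 was 1.56, 1.56 and 1.59 in the wildtype and 1.52, 1.45 and 1.399 in Fat4-/- libraries. Every Fat4-/- library had a lower ratio than every wildtype library. Its mean went from 1.57 ± 0.0172 to 1.45 ± 0.0595 (SD, n = 3), and the exact 2-sided permutation p was 0.1, the smallest possible with 3 against 3, and 0.6 adjusted over the 6 ratios and shares. The longest transcripts of Lats1 and Lats2 are 7209 and 5191 bases, so that Lats1 falls among the 10% of genes with the longest transcripts described for Tead1. With the long-transcript mean as a covariate the log2 fold change was 0.011 for Lats1 and 0.10 for Lats2 (adjusted p = 0.446 for Lats2, limma).

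**Figure D3:**
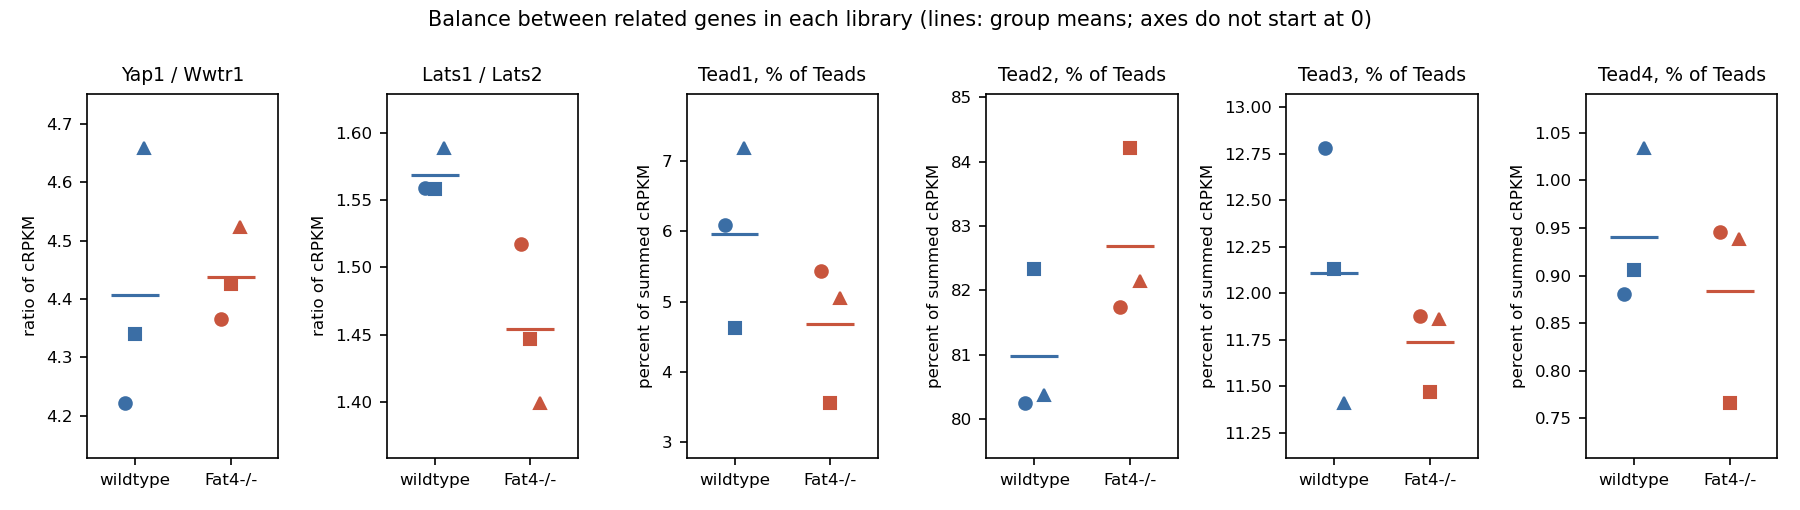
Ratio of Yap1 to Wwtr1, ratio of Lats1 to Lats2 and the share of each Tead in the summed Tead cRPKM, per library, with lines at the group means and axes that do not start at 0. The groups overlap in every panel except that of Lats1 to Lats2, with means of 1.57 in the wildtype and 1.45 in Fat4-/- kidneys.

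Stk3 (ENSMUSG00000022329, chromosome 15, 34875496 to 35178921), the gene for Mst2, was at 16.98, 16.72 and 15.47 cRPKM in the wildtype and 16.52, 15.89 and 15.21 in Fat4-/- kidneys (log2 fold change -0.043, interval -0.16 to 0.071, adjusted p = 0.786, limma). Sav1 (ENSMUSG00000021067, chromosome 12, 69965012 to 69987002) was at 29.32, 28.94 and 28.60 cRPKM in the wildtype and 29.23, 28.27 and 28.15 in Fat4-/- kidneys. Only Yap1 of the 10 genes varied less than Sav1, whose coefficient of variation was 1.71%. Its log2 fold change was -0.020, with an interval of -0.10 to 0.064 (adjusted p = 0.875, limma).

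**Figure D4:**
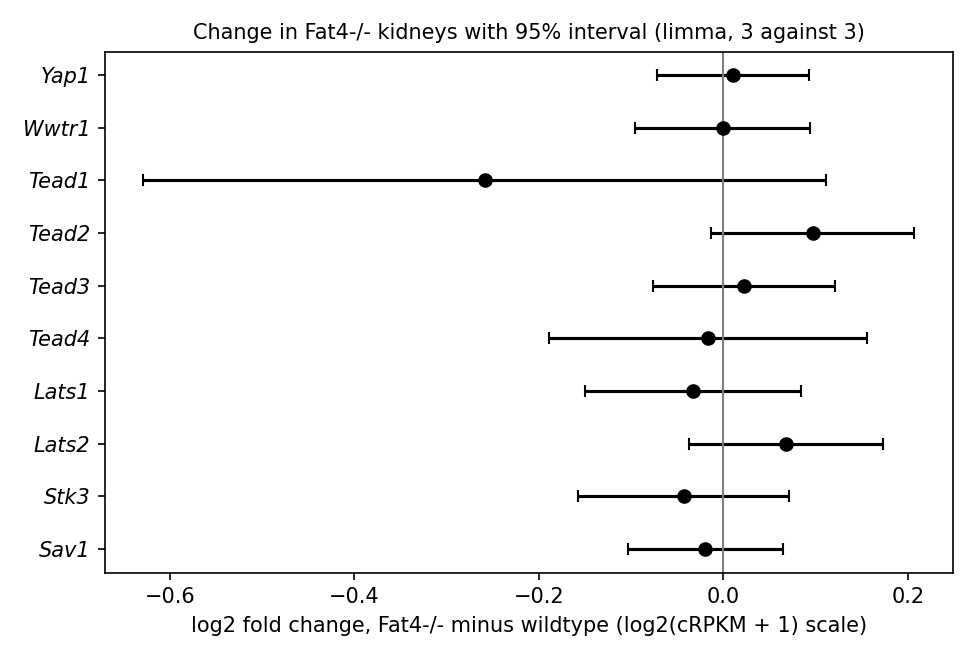
Log2 fold change of each gene, Fat4-/- minus wildtype on the log2(cRPKM + 1) scale, with its 95% interval from limma (3 against 3). All 10 intervals include 0; that of Yap1 is the narrowest, -0.072 to 0.092, and that of Tead1 the widest, -0.63 to 0.11.

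Ordered by mean level, Tead2 (168 cRPKM) was followed by Yap1 (77.4), Sav1 (28.8), Tead3 (24.5), Wwtr1 (17.5), Lats1 (16.3), Stk3 (16.1), Tead1 (10.9), Lats2 (10.8) and Tead4 (1.87). The ranges over the 6 libraries overlapped between Wwtr1 and Lats1, between Lats1 and Stk3 and between Tead1 and Lats2. The order of these neighbours within a library was not tested. The other neighbours were apart in all 6 libraries. By level 97.2% of the genes tested were below Tead2 and 92.5% below Yap1, but 7.13% below Tead4.

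The core kinase cassette also holds Stk4, the gene for Mst1, and the Lats activators Mob1a and Mob1b. Stk4 was at 17.95, 17.92 and 18.45 cRPKM in the wildtype and 18.19, 16.76 and 17.94 in Fat4-/- kidneys, close to the level of Stk3 (adjusted p = 0.787, limma). Mob1a, listed as Mobkl1b, was at 53.84, 50.83 and 51.96 in the wildtype and 51.23, 48.31 and 49.58 in Fat4-/- kidneys (adjusted p = 0.542, limma). Mob1b, listed as Mobkl1a, was lower, at 11.23, 10.29 and 11.82 in the wildtype and 11.38, 9.93 and 9.90 in Fat4-/- kidneys (adjusted p = 0.654, limma). In all, 0 of the 7 genes of the cassette were called, beside 1.43% of all genes tested. In 0 of the 7 the unadjusted p was under 0.05 (limma), beside 13.0% of all genes tested.

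Beyond the 10 genes, 73 other genes of the pathway were listed by role, of which 67 were tested. Of these 1 was called higher and none lower, beside 1.43% called of all genes tested. In 7 the unadjusted p was under 0.05, beside 13.0%, and in 13 the genotypes did not overlap, beside 18.2%. Their median log2 fold change was -0.0026, beside -0.012 over all genes tested. The called gene was Rassf4, of a family of Ras-association proteins that includes binding partners of Mst kinases. Rassf4 was at 3.11, 2.86 and 2.70 cRPKM in the wildtype and 4.13, 4.25 and 3.81 in Fat4-/- kidneys, with every Fat4-/- library above every wildtype library (log2 fold change 0.38, SE 0.0612, adjusted p = 0.0268, limma). Its adjusted p was 0.0458 without wildtype embryo 1 and 0.0560 to 0.112 without any other library, which ends the call. The log2 fold change itself was 0.35 to 0.42 over those fits, and 0.48 with a pseudocount of 0.1, which understates changes at low levels less. With the Y-linked level as a covariate, a fit that in effect rests on Fat4-/- embryo 1 alone, it was 0.40. With the long-transcript mean it was 0.35 (SE 0.0658, adjusted p = 0.0804, limma), so that the size moved little while the call was lost.

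Among the angiomotins, membrane adaptors that hold Yap outside the nucleus, Amotl2 was at 19.26, 18.09 and 19.19 cRPKM in the wildtype and 21.89, 21.44 and 21.65 in Fat4-/- kidneys (log2 fold change 0.19, adjusted p = 0.0664, limma). Amot was at 30.25, 29.11 and 29.32 in the wildtype and 28.21, 26.94 and 29.00 in Fat4-/- kidneys (adjusted p = 0.517, limma). Amotl2 passed in the fit with libraries scaled to the same median (adjusted p = 0.0426, limma) and in that with library weights (0.0323). Its adjusted p was 0.104 to 0.192 without 1 library, 0.165 without a filter on low values and 0.0856 with the long-transcript mean (limma). With the Y-linked level as a covariate, in effect Fat4-/- embryo 1 alone, its log2 fold change was 0.21. Of the 11 membrane adaptors tested none was called, beside 1.43% of all genes tested.

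Other kinases that can activate Lats numbered 10, with none called, beside 1.43% of all genes tested. Map4k3 was at 19.0 ± 0.479 cRPKM in the wildtype and 17.7 ± 0.577 in Fat4-/- kidneys (SD, n = 3, adjusted p = 0.383, limma), and Map4k5 and Map4k2 had log2 fold changes of -0.091 and -0.084 (adjusted p = 0.385 and 0.465, limma). The Ndr kinase genes Stk38 and Stk38l, close relatives of Lats, had adjusted p of 0.576 and 0.975 (limma). Of the LIM proteins that restrain Lats, Ajuba (listed as Jub) was at 27.16, 27.90 and 27.73 cRPKM in the wildtype and 28.55, 30.29 and 31.08 in Fat4-/- kidneys (log2 fold change 0.11, adjusted p = 0.298, limma), and Limd1 and Wtip were at 0.032 and -0.0018.

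Of 9 tested polarity genes none was called, beside 1.43% of all genes tested. Crb3, an apical polarity protein of epithelia, was at 7.95, 7.87 and 9.05 cRPKM in the wildtype and 7.25, 7.23 and 7.57 in Fat4-/- kidneys, without overlap (log2 fold change -0.15, adjusted p = 0.305, limma). The summed ureteric epithelium list was at 187.81 to 223.17 cRPKM in the wildtype and 178.78 to 183.96 in Fat4-/- libraries. Its genes did not all run that way: in 2 of the 9, Ret (0.15) among them, the log2 fold change was above 0. The part of this list in the level of Crb3 was not tested. Llgl1 and Dlg1 had adjusted p of 0.407 and 0.421 (limma). Of the phosphatase complex STRIPAK, which acts against Mst kinases, 0 of 12 tested genes were called, beside 1.43% of all genes tested. In 0 of the 12 the unadjusted p was under 0.05, beside 13.0%, and Sike1 was lowest at an adjusted p of 0.615 (limma).

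Vestigial-like proteins compete with Yap for Teads. Vgll3 was at 1.37, 1.17 and 1.02 cRPKM in the wildtype and 1.58, 2.05 and 1.57 in Fat4-/- kidneys, without overlap (log2 fold change 0.32, adjusted p = 0.164, limma). As for Tead4, the log2(cRPKM + 1) scale understates a fold change at such a level, and the Fat4-/- mean was 146% of the wildtype mean. Vgll4, far more abundant, was at 27.54, 30.02 and 30.30 in the wildtype and 29.48, 27.56 and 30.09 in Fat4-/- kidneys (adjusted p = 0.957, limma), while Vgll1 and Vgll2 were under 0.1 cRPKM in every library. Of 11 genes for the breakdown and cytoplasmic anchoring of Yap none was called, beside 1.43% of all genes tested. Csnk1e, a casein kinase with a part in the breakdown of Yap, was at 47.4 ± 1.15 cRPKM in the wildtype and 51.8 ± 1.54 in Fat4-/- kidneys (SD, n = 3). Its log2 fold change was 0.13 (adjusted p = 0.212, limma), and Ywhag and Sfn had adjusted p of 0.468 and 0.477 (limma).

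**Figure D5:**
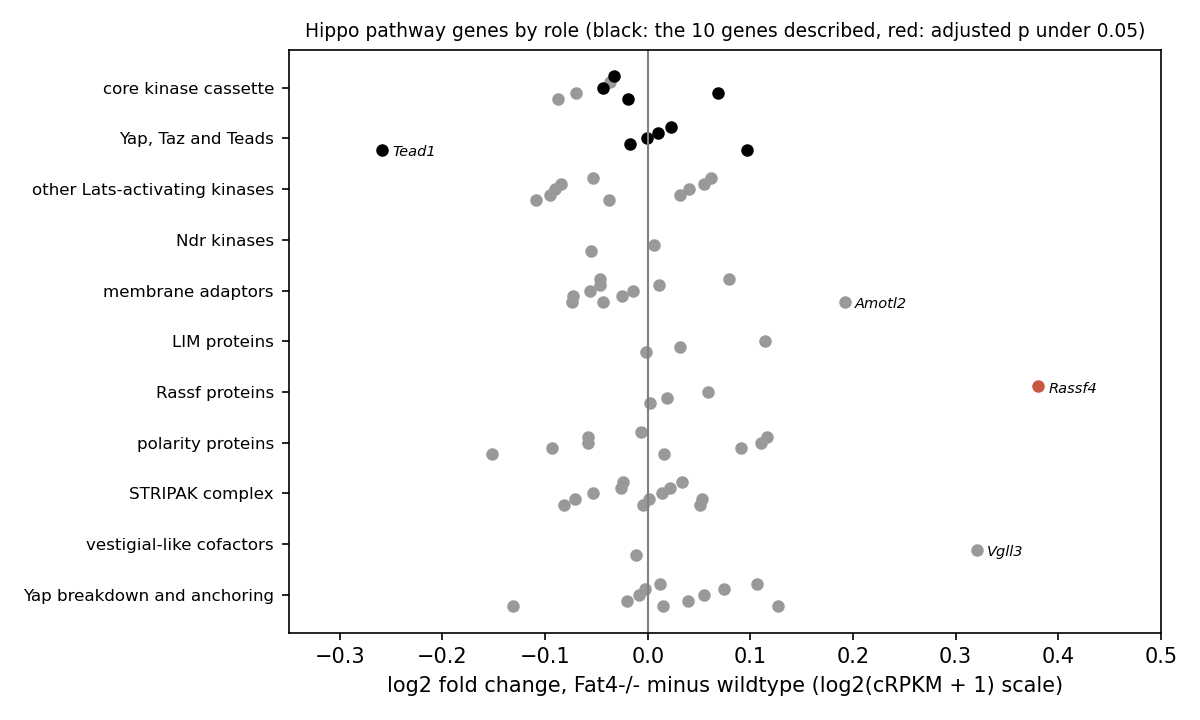
Log2 fold change of each tested gene of the pathway, Fat4-/- minus wildtype on the log2(cRPKM + 1) scale, by role, with the 10 genes described in black, the called gene in red and the others in grey. Rassf4, at 0.38, is the only red point, and Tead1, at -0.26, lies lowest.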

How the data were processed

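The authors deposited 1 table of 22667 genes with a column per embryo, and all 6 columns were used. Per the file headers reads were trimmed and the unit is RPKM in a corrected form, cRPKM. Bowtie (the aligner) and the mm9 build stand in the submitters' processing notes. The sources used here do not give the kind of correction. These are not counts, so log2(cRPKM + 1) was fitted with limma 3.58.1 in R 4.3.3 (2-sided, eBayes trend, with only genotype in the model), checked on simulated data, for genes whose mean reached 1 cRPKM. Alternatives changed the pseudocount (0.1), the low-value filter, the scaling, the covariates or the library weights, or left out 1 library. Read totals are unknown. Judged by the spacing of low values, the best-matching depth of 4 libraries was 0.952 to 1.04 relative to wildtype embryo 1, and wildtype embryo 3 could not be placed. These depths are rough. They accounted for 17 of 30 ratios of low values in wildtype embryo 2 and for 23 of 34, 22 of 32 and 17 of 28 in Fat4-/- embryos 1, 2 and 3. The sources used here do not give how reads shared by related genes were handled.

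The 10 genes and all gene lists were chosen with earlier results of these data known. Named genes are the 10, Fat4, the core cassette, the called genes of each other pathway list or else up to 3 with the smallest p, and the 3 genes most like Yap1 and Wwtr1. Six2, Foxd1 and Ret serve to check the tissue. Vgll1, Vgll2, Eya1, Osr1, Pdgfra, Col1a1, Col3a1, Ajuba as a target and the genes like Tead1 were named after their values were seen. Gene names not in the table were matched by older name or Ensembl identifier.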

Additional observations from a re-analysis of the deposited data

How the results depend on the processing

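With 3 embryos per genotype, small changes cannot be told from none, and 3 against 3 cannot give an exact p under 0.1. No member of the 10 was called under any of 16 alternatives (15 for Tead4, which was under a minimum of 3 cRPKM). Counts over all genes moved more. Against 176 calls there were 35 without a filter on low values, 273 with the embryo number as a replicate block, 41 with the long-transcript mean as a covariate (chosen after seeing the data) and 24 to 132 without 1 library. Against 1 call in the other pathway genes there were 0 without a filter and with the long-transcript mean, 2 with median scaling and with library weights, and 0 to 1 without 1 library. Counts with the Y-linked level as a covariate are left out, since that fit in effect has Fat4-/- embryo 1 as its only Fat4-/- library.

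Changes near 0 turned sign, and the cause was not tested. Those given with the Y-linked level rest, in effect, on Fat4-/- embryo 1 alone against the wildtype. Wwtr1 went to 0.0064 with quantile normalization, 0.017 with median scaling and 0.018 with the Y-linked level. Tead4 went to 0.035 with quantile normalization, 0.023 with the Y-linked level, 0.014 with library weights and 0.050 with the long-transcript mean. With the Y-linked level Tead3 went to -0.00084, Lats1 to 0.031, Stk3 to 0.012 and Sav1 to 0.013, and with the long-transcript mean Lats1 went to 0.011. Without 1 library the log2 fold change ran from -0.027 to 0.023 for Wwtr1, -0.012 to 0.042 for Tead3, -0.059 to 0.038 for Tead4 and -0.066 to 0.0076 for Lats1. The difference in the Yap1 to Wwtr1 ratio ran from -0.061 to 0.157 and that in the Tead4 share from -0.088 to 0.0020 percentage points. That of Lats1 to Lats2 ran from -0.145 to -0.0863 and that of Tead1 from -0.40 to -0.10 on the log2 scale.

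Embryos of 1 number carry library names that follow each other, but the labels do not say that they belong together, so they were not treated as pairs. Deviations from the group means correlated at 0.0985, 0.205 and 0.277 between embryos of the same number. Between embryos of different numbers they correlated at -0.247, -0.373, -0.352, 0.0593, 0.106 and 0.227. Deviations from the mean of a group sum to 0, which ties these values to each other, so they cannot decide whether the embryos were paired. With the number as a block Tead1 had an adjusted p of 0.107 (unadjusted 0.0056, lower in 3 of 3 numbers) and Tead2 of 0.219 (unadjusted 0.028, higher in 3 of 3) by limma, and no call among the 10 changed. The count of the 10 with an unadjusted p under 0.05 went from 0 to 2, beside 17.4% of all genes tested under the block. Fat4-/- embryo 1 correlated best with wildtype embryo 3 (0.106), and wildtype embryo 1 with Fat4-/- embryo 2 (0.227).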
